A study of Arabidopsis thaliana with 18 samples.

Results

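A low ratio of red to far-red light (low R:FR) was compared with control light in petioles, the stalks of rosette leaves, of Arabidopsis thaliana accession Col-0. The comparison uses 6 of the 18 arrays of the series, the 3 titled as low R:FR and the 3 titled as control light, and all 22746 probe sets of the Affymetrix ATH1 array that are not controls. Both groups were single plants of 29 d whose light treatment had lasted 24 h. They had been raised alike until 28 d, at 20 °C, in days of 9 h at 180 µmol of light per m2 per s and nights of 15 h. The series also holds low blue light, low blue light combined with low R:FR, a canopy of 2066 plants per m2 and its single plants of 37 d, with 3 arrays each. No label states the ratio that low R:FR reached. Whether each light replicate was a separate pool of plants is not in the labels either, and p-values then measure only the spread between these samples, which may be technical. Petioles were measured as bulk tissue, in which fewer cells of a type and less RNA per cell cannot be told apart.

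Plants read the ratio of red to far-red light through phytochromes, which red light activates and far-red light inactivates. Leaves absorb red and reflect far-red light, so the ratio drops near neighbours, active phytochrome B declines and phytochrome-interacting factors accumulate. These factors are known to raise auxin synthesis and auxin response genes, and petiole elongation with loosening of the cell wall follows.

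The 18 array medians ranged from 1.59 to 1.65 (log2). The 3 low R:FR arrays correlated with each other at 0.9913 to 0.9939, whereas the control light arrays did so at 0.9781 to 0.9892. Among the control light arrays replicates 1 and 3 were the least alike (0.9781), while replicate 2 correlated with replicate 1 at 0.9892 and with replicate 3 at 0.9882. Replicate 1 correlated with the low R:FR arrays at 0.99 to 0.9903 and replicate 3 at 0.9745 to 0.9765. Results are given with and without control light replicate 3, the array farthest from low R:FR. Of the marker lists for other tissues, the root gene PYK10 lay at 1.04 to 2.42 and the shoot meristem gene CLV3 at 0.74 to 1.11 on the 6 arrays. The other measured root gene had a control light mean of 2.07 and a change of -0.126. Probe sets with a mean below 1.5, which are 46.8% of all over the 18 arrays, lie at the dim end where differences are compressed. The summed log2 level of 4 guard cell markers was 6.55 to 7.79 in control light and 5.62 to 6.35 in low R:FR. These sums did not overlap, but only 1 of the 4 members lay below control light on all arrays, against 8.58% of all probe sets. Their control light means ranged from 0.977 to 3.31. With low R:FR added to low blue light, 2 of the 4 were above 0 and 2 below (median -0.0424). No member of that list was called, FMA, a regulator of the last guard cell division, was lower by 0.26 and the ion exchanger gene CHX20 by 0.67 (adjusted p 0.507 and 0.502), and the part of this in the results below was not tested. Mesophyll markers summed to 19.3 to 19.5 in control light and 19.5 to 19.7 in low R:FR.

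In low R:FR 197 probe sets, or 0.866% of those tested, differed from control light at an adjusted p under 0.05 (limma, Benjamini-Hochberg). Of these 141 were higher (0.62% of all) and 56 lower (0.246%). The risen probe sets had a median log2 change of 1.06, from 0.393 to 3.38, and 78 of them rose by at least 1. Among the fallen the median was -0.791, and 19 fell by at least 1. Without control light replicate 3 the counts were 72 higher and 12 lower, and without control light replicate 1 they were 252 higher and 220 lower (53.4% higher, against 71.6%). In the plot of change against level the risen probe sets reach further from 0 than the fallen ones. Only 10 of the 141 risen probe sets (7.09%) had a control light mean below 1.5, and none of the 56 fallen did, against 46.6% of all probe sets. A probe set near the floor in control light has little room to fall. The low R:FR mean was below 1.5 for 5 of the 56 fallen and 1 of the 141 risen. A single named gene was available for 58 risen and 27 fallen probe sets, and 82 and 28 were not listed in the annotation used here and stay unnamed.

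**Figure D1:**
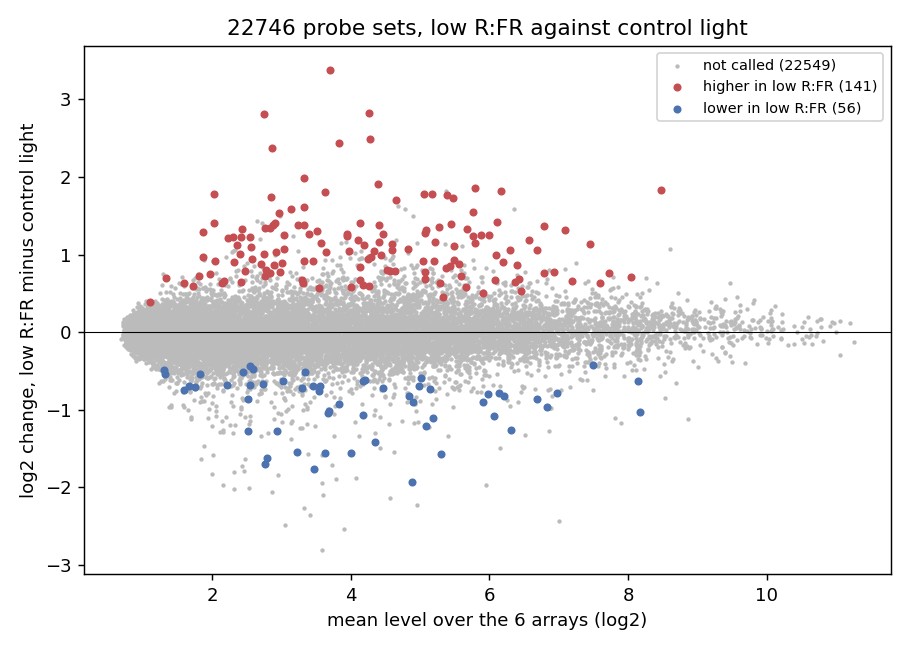
Log2 change, low R:FR minus control light (vertical axis), against the mean log2 level over the 6 arrays (horizontal axis) for 22746 probe sets. The 141 risen probe sets (red) reach 3.38 and the 56 fallen ones (blue) reach -1.93, and few called probe sets lie at the dim end on the left.

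Control light replicate 3 was the control array farthest from the low R:FR mean in 97 of the 141 risen and 38 of the 56 fallen probe sets. The array nearest to low R:FR was most often control light replicate 1, in 85 and 32. Such counts were not made over all probe sets. Replicate 3 also correlated least with low R:FR over all of them (0.9745 to 0.9765), so the counts cannot be read as a trait of the called probe sets. The median difference of the low R:FR mean from control light replicates 1, 2 and 3 was 0.858, 0.964 and 1.26 for the risen probe sets, and -0.666, -0.827 and -0.941 for the fallen. Over all probe sets the groups did not overlap in 16.2%, with low R:FR above in 7.58% and below in 8.58%. They did not overlap in any of the 197 called either, but those were called on the same arrays.

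Among genes of light signalling HYH and AFR rose. HYH encodes a bZIP factor closely related to HY5 and active in seedling light responses. Its level was 4.06, 3.1 and 3.11 on the control light arrays and 4.79, 4.83 and 4.88 on the low R:FR arrays. The treated arrays lay close together, and control light replicate 1 lay between them and the other control arrays. The change was 1.41 ± 0.29 (limma SE; adjusted p 0.0278). AFR, which encodes an F-box protein of the phytochrome A response to far-red light, measured 4.52, 4.47 and 3.88 in control light. In low R:FR it measured 5.12, 5.47 and 5.47, a change of 1.07 ± 0.19 (adjusted p 0.00835). All 3 treated arrays lay above the controls for both genes. FHL, a helper of phytochrome A import into the nucleus, was the other measured member of this list of 23 and had a change of 0.11 (adjusted p 0.868). Without control light replicate 3 the change was 1.26 for HYH (adjusted p 0.156) and 0.86 for AFR (0.0529), and over the 6 single arrays left out HYH lost its call in 5 cases and AFR in 3. LIP1, a small GTPase gene linked to the circadian clock in light, was lower by 0.44 at the edge of the threshold (adjusted p 0.0494, and not called in 5 of 6 leave-outs).

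IAA29, an Aux/IAA repressor gene that auxin and phytochrome-interacting factors induce, rose from the floor of the array. It read 1.15, 1.11 and 1.40 in control light and 3.08, 2.21 and 2.25 in low R:FR. Low R:FR replicate 1 was the highest, and the lowest treated array stood well above the highest control array. The change of 1.3 ± 0.21 (adjusted p 0.00523) was 1.38 without control light replicate 3 (0.0147) and kept its call with each of the 6 arrays left out in turn, but not with the spread taken from these 6 arrays alone (adjusted p 0.0723). The control level lay at the dim end, where differences are compressed. The other 6 measured Aux/IAA genes (IAA18, IAA20, IAA30, IAA31, IAA33 and IAA34) had changes of -0.08 to 0.14, and none was called. In the list of auxin synthesis and conjugation genes 0 of 8 passed the test. Its auxin-conjugating members GH3.17 and WES1 had changes of 0.43 and 0.34 (adjusted p 0.204 and 0.388), and the YUCCA genes YUC2, YUC4 and YUC6, of auxin synthesis, lay between -0.07 and 0.06 at levels near the floor.

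IAA29 also belongs to a list of 23 shade marker genes, of which 5 had a named probe set. It was the 1 member called. XTH19 and XTH16, whose products cut and rejoin wall xyloglucan, had changes of 1.41 ± 0.44 and 1.24 ± 0.33 (adjusted p 0.176 and 0.0989). XTH19 measured 2.52, 2.15 and 1.38 in control light and 4.14, 3.58 and 2.55 in low R:FR, so the lowest treated array lay just above the highest control array. For XTH16 the control arrays spread from 3.29 through 2.59 to 1.74, against 3.71, 3.97 and 3.67. In both genes control light replicate 3 was the lowest and replicate 1 the highest control. HAT2, a homeodomain-leucine zipper gene induced by shade, had a change of 0.35 ± 0.12 (adjusted p 0.255), and its groups overlapped through control light replicate 1. The list's median change was 1.24, against -0.0114 over all probe sets.

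Of the cell wall lists, 2 trichome birefringence-like genes and 1 expansin-like gene were called. TBL26, of the trichome birefringence-like family that acetylates wall polysaccharides, read 4.06, 3.64 and 2.62 in control light and 5.69, 5.58 and 4.76 in low R:FR. Its rise of 1.91 ± 0.32, which is 3.75-fold, had an adjusted p of 0.00621, and remained called without control light replicate 3 (1.5, adjusted p 0.0286), but not with the spread of the 6 arrays alone (0.105). TBL37 rose by 0.96 ± 0.19, from 3.67, 3.67 and 4.09 to 4.88, 4.82 and 4.62 (adjusted p 0.0191). Here control light replicate 3 was the highest control, the reverse of its place for TBL26, and the call was lost without control light replicate 2 or low R:FR replicates 1 or 2 (adjusted p 0.0844 to 0.0973). The other 20 of 22 measured family members were not called, and the family's median change was -0.03. Of all probe sets 0.866% were called.

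EXLA2, an expansin-like gene, measured 5.02, 4.58 and 4.16 in control light and 5.67, 5.67 and 5.14 in low R:FR. It rose by 0.91 ± 0.20 (adjusted p 0.0402), and by 0.7 without control light replicate 3 (adjusted p 0.21). EXLA1, its relative, had a larger change of 1.59 ± 0.36 and missed the threshold narrowly (adjusted p 0.0502). EXLA1 read 4.68, 3.36 and 3.91 against 5.74, 5.79 and 5.18, and no arrays overlapped. Of the 18 measured expansins and expansin-like genes 1 was called and 13 had a change above 0, with a median of 0.08. EXPB1 and EXPB3 were separated as well, at 0.71 and 0.8 (adjusted p 0.269 and 0.141), while the expansin EXPA15 overlapped. Among 10 XTH genes 0 were called, 8 were above 0 and 5 lay above control light on all arrays. Of all 22746 probe sets 10662 were above 0, and 7.58% lay above control light on all arrays. No member passed the test in the lists of 7 cellulose synthase relatives (median 0.206), 4 pectin methylesterase and lyase genes (-0.0958) or 9 tubulins and actins (0.177). In the last of these ACT11, a gene of the actin cytoskeleton, had a change of 0.96 (adjusted p 0.114). The pectin list covers 4 of 37 members and the cellulose synthase list 7 of 35. Both were matched by symbol, so family members known here only by locus are not counted in them. Called genes given below by locus alone may belong to these families, which the lists therefore do not describe as a whole.

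**Figure D2:**
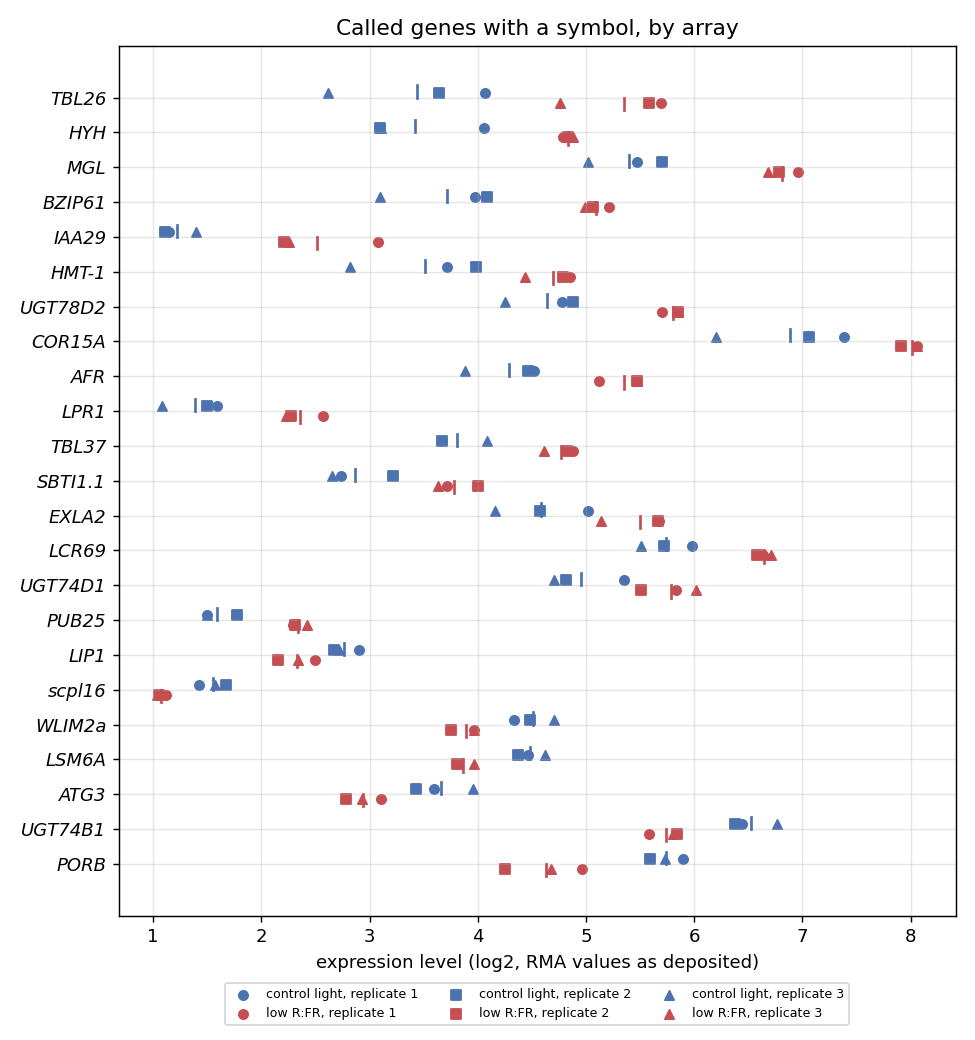
Log2 level on each of the 6 arrays for the 23 called genes that carry a symbol, in control light (blue) and low R:FR (red), with replicates 1 to 3 as circles, squares and triangles and a short line at each group mean. No gene's groups overlap, and in most risen genes the lowest control array is replicate 3 (triangle).

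Genes of amino acid and secondary metabolism rose or fell singly. MGL, which encodes methionine gamma-lyase, an enzyme of methionine breakdown, measured 5.47, 5.70 and 5.01 in control light and 6.96, 6.78 and 6.68 in low R:FR. The rise of 1.41 ± 0.15 had an adjusted p of 0.000142 and kept its call in all leave-outs and other settings run. HMT-1, a homocysteine methyltransferase gene on the path that forms methionine, rose by 1.18 ± 0.26 (adjusted p 0.0463), and by 0.84 without control light replicate 3 (0.212). Low R:FR arrays for HMT-1 lay at 4.43 to 4.86, above control arrays that ranged from 2.82 to 3.99.

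UGT78D2, which attaches glucose to flavonols and anthocyanidins, read 4.78, 4.88 and 4.25 in control light and 5.70, 5.85 and 5.85 in low R:FR. The treated arrays were tightly grouped, and the change of 1.16 ± 0.16 (adjusted p 0.00137) was 0.97 without control light replicate 3 (0.00754). CHIL, a chalcone isomerase-like gene that enhances flavonoid synthesis, had a change of 1.18 ± 0.31 but was not called (adjusted p 0.0956). Its control arrays were 4.54, 4.51 and 3.14, with replicate 3 far below the other two. The flavonoid list holds 4 measured genes, and its DFR and UGT78D1, an anthocyanin synthesis gene and a flavonol rhamnosyltransferase gene, lay at -0.06 and -0.02. UGT74D1, whose product glucosylates auxins, rose by 0.83 ± 0.18 (adjusted p 0.0409, and 0.212 without control light replicate 3). UGT74B1, a glucosyltransferase gene of glucosinolate synthesis, fell by 0.79 from 6.44, 6.38 and 6.76 to 5.58, 5.84 and 5.80 (adjusted p 0.041, and 0.214 without control light replicate 3). These 3 were the called members among 47 glycosyltransferase genes, whose median change was -0.04, against 0.866% called of all probe sets. BCAT4, of the chain elongation of methionine for glucosinolates, ranged from 4.22 to 6.65 in control light and from 2.11 to 4.78 in low R:FR, and its change of -2.13 ± 0.95 was within that spread (adjusted p 0.388).

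PORB, which encodes a light-dependent protochlorophyllide oxidoreductase, was the called gene of chlorophyll synthesis. It measured 5.90, 5.59 and 5.73 in control light and 4.96, 4.25 and 4.67 in low R:FR, and fell by 1.11 (SE 0.22, adjusted p 0.0183). Every treated array lay below every control array. Without control light replicate 3 the change was -1.12 (adjusted p 0.0757), and without low R:FR replicates 2 or 3 the call was lost too (0.127 and 0.0614). CHLM, the other measured member, which methylates magnesium protoporphyrin, had a change of -0.18 (adjusted p 0.616). The antenna genes LHCB4.1, LHCB4.2 and LHCB4.3 were not called, with changes of -0.14, -0.31 and 0.27.

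COR15A, a cold-regulated gene for a chloroplast protein that protects membranes, rose by 1.13 ± 0.22 (adjusted p 0.0199). Its control arrays read 7.38, 7.06 and 6.20 and its low R:FR arrays 8.06, 7.91 and 8.06. Control light replicate 3 was the lowest, and without it the change was 0.79 (adjusted p 0.0609). The call was also lost without any 1 of the low R:FR arrays (0.0704 to 0.0802). COR15B, its close relative, and COR47 and LTI30, which encode dehydrins, had changes of 0.18 to 0.27 and were not called.

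Of 10 measured autophagy genes 1 was called, against 0.866% of all probe sets. ATG3, which encodes the enzyme that joins ATG8 proteins to lipid, measured 3.59, 3.43 and 3.95 in control light and 3.11, 2.78 and 2.93 in low R:FR. It fell by 0.72 (SE 0.16, adjusted p 0.0447) and was not called without control light replicate 3 (-0.57, adjusted p 0.227), the call being lost in 4 of 6 leave-outs. The other 9 members, all of the ATG8 family that coats autophagosomes, were not called. All 10 had a change below 0, with a median of -0.361 against -0.0114 over all probe sets. In 6 of the 10 (ATG3, ATG8D, ATG8E, ATG8H, ATG8F and APG8A) every low R:FR array lay below every control array, against 8.58% of all probe sets. ATG8F read 5.34, 5.32 and 5.71 in control light and 5.17, 4.72 and 4.74 in low R:FR (-0.58, adjusted p 0.188). Added to low blue light, low R:FR also left all 10 below 0 (median -0.38), and ATG8E fell there (-0.98, adjusted p 0.0422). In the canopy the list's median was 0.244, and ATG8C rose (0.65, adjusted p 0.025).

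BZIP61, a bZIP transcription factor gene, rose by 1.38 ± 0.28, from 3.97, 4.08 and 3.1 to 5.21, 5.07 and 4.99 (adjusted p 0.0272, and 0.156 without control light replicate 3). With HYH it was called among 15 measured bZIP genes, whose median change was 0.00489, against 0.866% called of all probe sets. HMT-1, LIP1, LCR69, SBTI1.1, PUB25, LSM6A, WLIM2a and scpl16 were chosen after their values were seen, as the remaining called genes that carry a symbol. LCR69, a gene of the defensin-like cysteine-rich peptides, rose by 0.91 ± 0.13 from 5.98, 5.72 and 5.51 to 6.64, 6.58 and 6.71 (adjusted p 0.00137). It kept its call in every setting run. SBTI1.1, a subtilisin-like protease gene, and PUB25, a U-box ubiquitin ligase gene, rose by 0.91 and 0.75 (adjusted p 0.00592 and 0.00642) and kept their calls in all leave-outs. LPR1, a multicopper oxidase gene known from the root response to low phosphate, rose by 0.97 ± 0.18 from a control mean near the floor (adjusted p 0.0159, and 0.108 without control light replicate 3). LSM6A, which encodes a subunit of RNA-binding Sm-like rings, fell by 0.62 (adjusted p 0.00664, and 0.0501 without control light replicate 3). WLIM2a, an actin-binding LIM protein gene, fell by 0.61, and scpl16, of the serine carboxypeptidase-like family, by 0.49 (adjusted p 0.0333 and 0.0481). Both lost their calls without control light replicate 3 (0.186 and 0.178).

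Genes known here only by locus were among the clearest. AT4G25260 measured 4.57, 4.46 and 4.83 in control light and 6.43, 6.45 and 6.14 in low R:FR. Its rise of 1.72 ± 0.15 had the lowest adjusted p among probe sets with a named gene in this comparison (2.58e-05), and was 1.83 without control light replicate 3. AT5G66590 rose by 1.7 ± 0.17, from 3.34, 4.29 and 3.78 to 5.50, 5.69 and 5.32, and AT1G69570 by 1.34 ± 0.16, from 2.20, 2.02 and 2.29 to 3.60, 3.67 and 3.26. In these 3 genes control light replicate 3 did not stand apart. AT3G56290 rose by 1.82 from a control range of 4.65 to 5.68 to 6.98 to 7.08. AT1G65870, AT3G57020, AT5G42760 and AT1G06690 rose by 1.04 to 1.25 and also kept their calls in all 6 leave-outs. AT1G70985, AT3G28220, AT4G33420 and AT1G21050 rose by 1.23 to 1.8 but lost the call in 3 to 5 of them. Without control light replicate 3 their adjusted p was 0.0697, 0.247, 0.0901 and 0.119.

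Of the fallen genes with a locus only that are named here, AT4G24780 was the one that remained called in all 6 leave-outs. Fallen genes not named were not followed through the leave-outs. It read 7.08, 7.07 and 7.20 in control light and 6.40, 6.16 and 6.18 in low R:FR, and fell by 0.87 (SE 0.14, adjusted p 0.00503). AT3G23080 fell by 1.76, from 4.02, 4.51 and 4.52 to 2.37, 2.73 and 2.64 (adjusted p 0.0129, and 0.075 without control light replicate 3). The groups of AT3G23080 were wide apart. AT1G74940 and AT3G22970 fell by 1.54 and 1.2 and lost the call without low R:FR replicate 2 (adjusted p 0.0531 and 0.0547). AT5G55530 and AT4G00780 fell by 1.27 and 1.41 and lost it without control light replicate 3 (0.063 and 0.0552), and without low R:FR replicate 2 for the first and replicate 3 for the second (0.0555 and 0.0514). AT1G56220, AT1G67750, AT1G17430, AT4G17940, AT1G48750, AT1G67910 and AT3G13040 fell by 0.73 to 1.26, and each lost it in 3 to 5 leave-outs, that of control light replicate 3 among them (0.0553 to 0.206). At the threshold AT3G28220 and LIP1 were the last genes inside (adjusted p 0.0488 and 0.0494), and EXLA1, AT3G04640 and AT1G64500 the first outside (0.0502, 0.0502 and 0.0504).

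Among called probe sets the farthest changes were in some that the annotation does not name. The probe set 264146_at rose by 3.38 ± 0.46, from 2.88, 1.73 and 1.45 to 5.74, 5.42 and 5.02 (adjusted p 0.0012), and 253040_at fell by 1.93 (SE 0.31), from 5.48, 5.88 and 6.20 to 4.28, 4.26 and 3.24 (adjusted p 0.00484). Both moved the same way on low blue (2.55 and -2.2).

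Most lists had no called member. A member was measured in 21 lists by locus and 23 by symbol. Those for gibberellin, ethylene, brassinosteroid, clock, jasmonate, P450, glutathione transferase, WRKY, bHLH, sugar transporter and beta-glucosidase genes had 0 called (limma, adjusted over all probe sets). Several of these rest on few measured members: 1 of 18 for ethylene, 1 of 15 for brassinosteroid, 1 of 25 for the clock and 2 of 10 for jasmonate. For gibberellin it was 4 of 18, for WRKY 6 of 67 and for P450 22 of 225. These lists therefore do not show whether the pathways as a whole responded, and called genes given above by locus alone may belong to them. GID1A, a gibberellin receptor gene, lay at -0.45 and the clock gene GI at 0.27 (adjusted p 0.232 and 0.486). The beta-glucosidase gene BGLU47 had a change of -0.99 (adjusted p 0.235). The plot of lists shows the called members beside the rest.

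**Figure D3:**
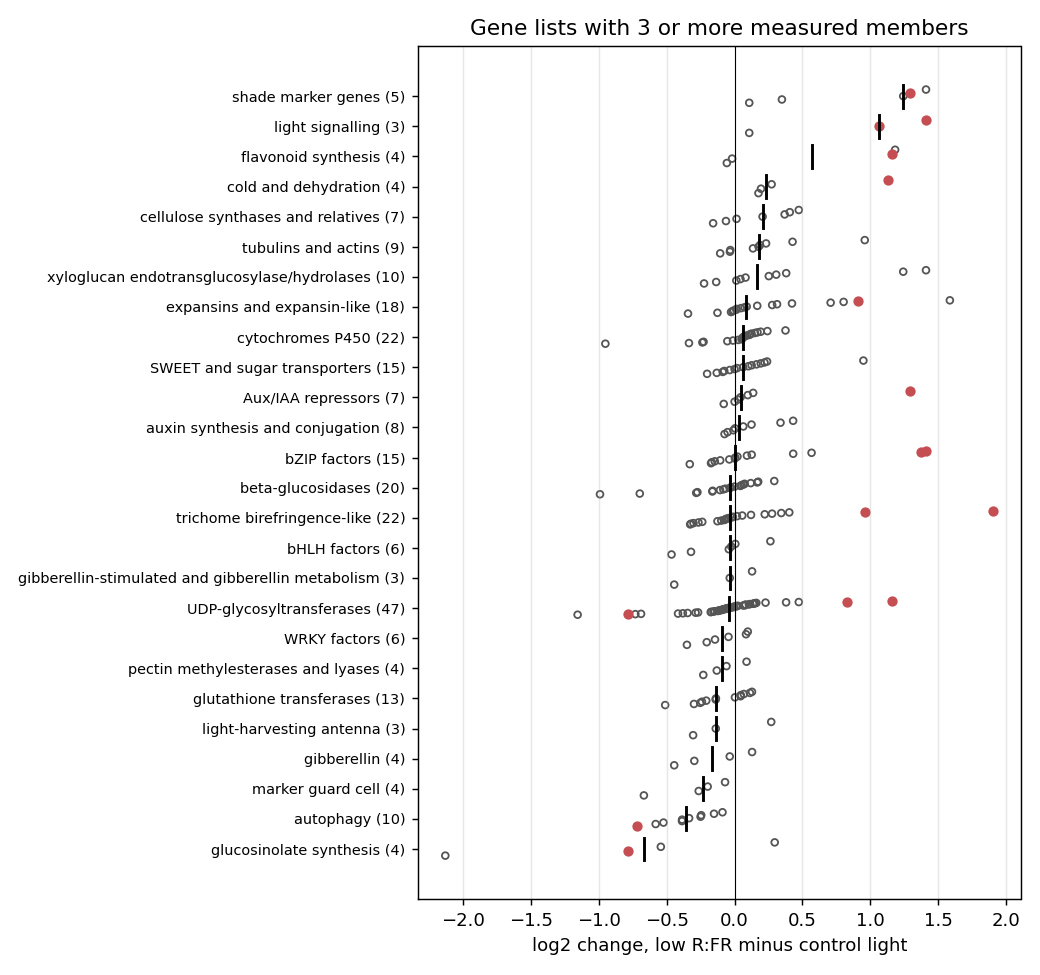
Log2 change, low R:FR minus control light (horizontal axis), of every measured member of the gene lists with 3 or more members, with the number of members in brackets. Filled red points are called, open points are not, and the black bar is the list's median, lowest for glucosinolate synthesis (-0.665) and highest for shade marker genes (1.24).

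Low R:FR was also applied on a low blue background, with 3 arrays of low blue light and 3 of both treatments together, none of which enter the comparison above. There 292 probe sets were called (1.28%), 179 higher (0.787%) and 113 lower (0.497%). Of the 141 risen probe sets 140 had a change above 0 there, 88 were called higher (62.4%) and 121 had arrays that did not overlap, against 7.06% of all probe sets. They make up 49.2% of the 179. Of the 56 fallen, 55 were below 0, 23 were called lower (41.1%, or 20.4% of the 113) and 45 did not overlap, against 7.54% of all. None was called in the opposite direction. The median change of the risen was 0.907 and that of the fallen -0.673. Across all 22746 probe sets the changes in both settings correlated at r = 0.66, a description over probe sets that share the arrays' processing and are not independent. All calls share 1 estimate of spread over the 18 arrays. With the spread taken from the 6 arrays of low blue and the combined treatment alone, 60 of the 141 and 16 of the 56 were called. Of the 72 risen and 12 fallen probe sets called without control light replicate 3, 54 (75%) and 8 (66.7%) were called on low blue.

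**Figure D4:**
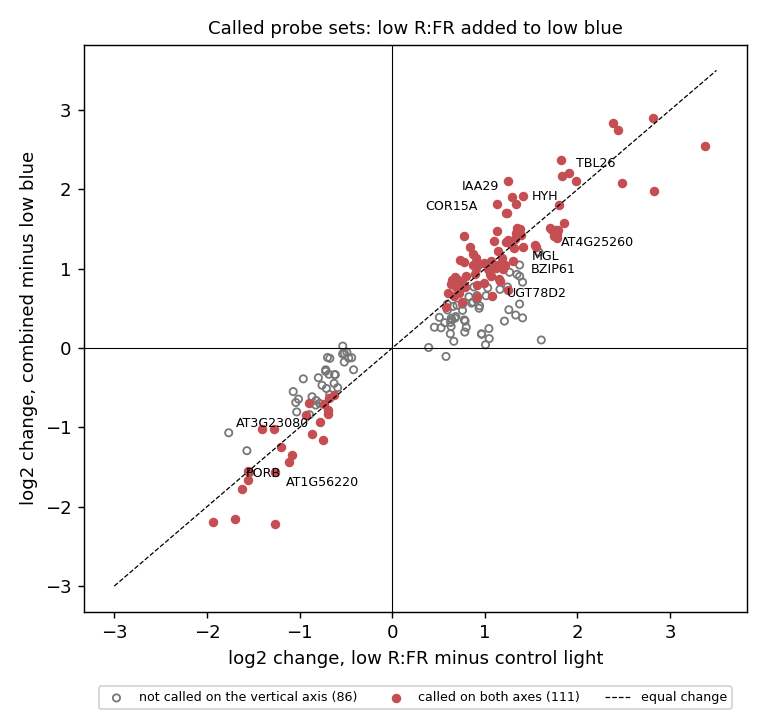
Log2 change on low blue, combined minus low blue (vertical axis), against the change in low R:FR alone (horizontal axis) for the 197 probe sets called in low R:FR, with filled points called on both axes (111) and a dashed line of equal change. Of the 141 risen 140 lie above 0 on the vertical axis and of the 56 fallen 55 lie below it.

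Values of single genes on low blue were as follows, and the interaction test called none of these genes (limma, adjusted p 0.9999 for each). HYH read 2.28, 2.11 and 2.1 in low blue and 4.39, 4.17 and 3.68 in the combined treatment, a rise of 1.92 ± 0.29 (adjusted p 0.00235). The low blue arrays of HYH lay below every control light array. COR15A rose by 1.81 (adjusted p 0.000289), from 5.07 to 5.46 in low blue to 6.94 to 7.19, and IAA29 by 1.9 (0.000141), from 1.41 to 1.6 to 3.15 to 3.89. XTH19, XTH16 and HAT2, not called in low R:FR alone, rose there by 2.17, 1.49 and 1.04 (adjusted p 0.0187, 0.0319 and 0.000195). Thus 4 of 5 shade markers were called on low blue, against 1.28% of all probe sets. PORB fell by 1.44 on low blue (adjusted p 0.00209), from 6.56 to 7.09 to 4.98 to 5.66. TBL37 had a change of 0.18 (adjusted p 0.818), with low blue arrays of 3.80, 4.60 and 4.66 against 4.58, 4.53 and 4.48. LPR1, AT1G06690 and AT5G42760 had changes of 0.17, 0.25 and 0.34 and were not called there. Like TBL37, they are among the genes with the largest interaction, by which genes were also named. Their small changes on low blue come in part from that choice.

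The test of the difference between both low R:FR effects called 0 probe sets (limma interaction). An unadjusted p under 0.05 was found for 811 of 22746, fewer than the 5% expected if no probe set differed. In fits with the spread taken from the 12 light arrays, or with an intensity trend, 1 probe set was called in each case, AT5G05250 and AT4G27450. Neither was among the 197. For TBL37 and AT5G42760, named for the size of this difference, it was -0.78 and -0.87 (adjusted p 0.9999 for both).

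The canopy comparison, with plants of 37 d, shares no array with low R:FR either, but age and duration differ, and each replicate pooled petioles of 4 plants. It called 968 probe sets (4.26%), 479 higher (2.11%) and 489 lower (2.15%). Of the 141 probe sets risen in low R:FR 73 were above 0 in the canopy, 32 were called higher (22.7%, or 6.68% of the 479) and 25 were called lower. Of the 56 fallen, 32 were below 0, 7 were called lower (12.5%, or 1.43% of the 489) and 4 higher. Across all probe sets the changes correlated at r = 0.0714. The difference between the canopy effect and the low R:FR effect was called for 473 probe sets (2.08%), among them 64 of the risen and 20 of the fallen. The risen and fallen sets were called on the low R:FR and control light arrays that also enter this difference. That choice raises their counts, which therefore cannot be read against 2.08%.

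Genes that rose in both included IAA29 (1.14 in the canopy, adjusted p 0.00384), BZIP61 (2.13), AT4G25260 (1.44), AT5G66590 (1.09), AT1G69570 (1.31), AT4G33420 (1.3) and PUB25 (0.5). BZIP61 read 2.38, 2.27 and 2.18 in single plants and 4.64, 4.79 and 3.79 in the canopy. Likewise AT4G24780, AT1G67750 and AT1G48750 fell in both, by 0.84, 1.35 and 0.93 in the canopy. MGL, HYH, COR15A and AT3G57020 rose in low R:FR and had canopy changes of -0.08, -0.15, -0.29 and -0.05. For MGL, COR15A and AT3G57020 the difference between both effects was called (-1.49, -1.42 and -1.29, adjusted p 0.00127, 0.0245 and 0.0203). For HYH it was not (-1.56, 0.0624). The low R:FR calls of these genes used arrays that enter the difference, so its call is no separate support.

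TBL26 and UGT78D2 moved in opposite directions. TBL26 read 5.21, 4.49 and 5.52 in single plants and 3.59, 3.77 and 3.31 in the canopy, where it fell by 1.52 (SE 0.32, adjusted p 0.00944). UGT78D2 fell by 1.05 there (SE 0.16, adjusted p 0.000894), from 6.09, 6.13 and 5.87 to 5.03, 5.09 and 4.80. In both genes the single plants of 37 d lay closer to the low R:FR arrays than to control light. The flavonoid list had 3 of 4 members called lower in the canopy, against 2.15% of all probe sets, with CHIL at -1.21 and UGT78D1 at -1.01. AT5G42760 rose by 1.21 in low R:FR, from 1.79, 1.76 and 1.30 to 2.75, 2.70 and 3.03, and fell by 0.88 in the canopy. AT1G56220 fell in low R:FR, from 6.47, 6.99 and 7.35 to 5.67, 5.45 and 5.90, and rose by 1.21 in the canopy, from 5.39, 5.47 and 5.6 to 6.44, 6.65 and 7.00.

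**Figure D5:**
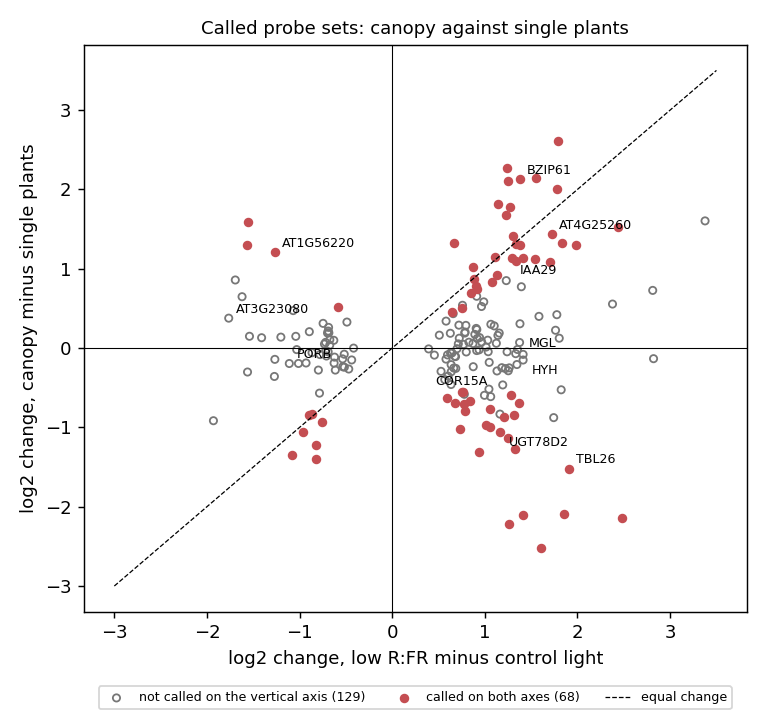
Log2 change in the canopy, canopy minus single plants (vertical axis), against the change in low R:FR (horizontal axis) for the 197 probe sets called in low R:FR, with filled points called on both axes (68) and a dashed line of equal change. Risen probe sets lie on both sides of 0, with TBL26 and UGT78D2 below it and BZIP61 and AT4G25260 above it.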

How the data were processed

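The authors deposited 1 log2 value per array for each of 22810 probe sets, made with RMA according to the submitters' processing notes. Whether other arrays were normalized together is not given in the sources used here. RNA of 100 ng per sample was labelled by a 3′ in vitro transcription kit, per the labels' protocols. The bacterial control transcripts of bioC, bioD and cre read 2.01, 4.19 and 6.25 above those of bioB. After 64 control probe sets were set aside, 22746 were tested. The platform annotation gave 13513 of them 1 gene, 503 several and 8730 none. Where a gene had several, the probe set with the highest mean of the 18 arrays stands for it.

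limma 3.58.1 in R 4.3.3 (lmFit, eBayes) was fitted with a mean per group to all 18 arrays, giving 12 residual and 4.41 prior degrees of freedom. Two-sided p-values were adjusted within each comparison over all probe sets (Benjamini-Hochberg), and a probe set was called under 0.05. Values after ± are standard errors from limma. Contrasts were low R:FR against control light, low R:FR added to low blue, their interaction, canopy against single plants, and the canopy effect minus the low R:FR effect. The fit was tested on simulated data.

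Genes named are those with the 15 largest rises and 15 largest falls among called probe sets with 1 gene and groups that do not overlap, called members of 29 lists by locus and 32 by symbol (or the largest change where none was called), up to 6 with the largest interaction and 6 with the largest difference from the canopy. Called genes with a symbol were added after their values were seen. The comparison, lists and rule were chosen with earlier results of these data known. Promoter motifs and sequences were not analysed here. The number of arrays limits the precision: an exact permutation test of 3 against 3 arrays cannot go below 0.1. Alternatives were the replicate number as a block, fits to fewer arrays, an intensity trend, array weights, quantile normalization, a filter on dim probe sets and each array left out.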

Additional observations from a re-analysis of the deposited data

Results flagged for a closer look

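In the canopy 25 of the 141 risen and 4 of the 56 fallen probe sets were called in the opposite direction. In 4 of the genes named in the text the canopy effect and the low R:FR effect were both called and had opposite directions, and the difference between the effects was itself called by limma. All 4 were among the genes named for the largest such difference, and their low R:FR call used arrays that enter it. The call of the difference is therefore no separate support. For TBL26 the canopy effect minus the low R:FR effect was -3.43 (adjusted p 0.000643), with 3 of 3 low R:FR arrays above control light and 3 of 3 canopy arrays below the single plants. For UGT78D2 the difference was -2.22 and for AT5G42760 it was -2.09 (both adjusted p 0.00011). AT1G56220 differed the other way, by 2.47 (adjusted p 0.000787). Plants of both experiments differed in age and in the length of exposure, and the part of these in the differences cannot be told apart from that of the treatments.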

How the results depend on the processing

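None of the 48 called genes named changed sign under any setting run. For low R:FR, 106 were called with only its 6 arrays, 457 with array weights (61.1% of them higher, against 71.6%) and 80 to 472 with 1 array left out. Leaving out control light replicate 1 gave 472, replicate 2 gave 119 and replicate 3 gave 84, while leaving out 1 low R:FR array gave 80 to 119. With control light replicate 2 as the lone control, a setting chosen after seeing the data that leaves out control light replicates 1 and 3, 37 were called. A block for the replicate number gave 233 (170 higher). Same-numbered control light and low R:FR arrays had deviations that correlated at -0.0201, 0.0538 and 0.0273, so the numbers were not taken to pair the samples. With the block 4 of the 48 called genes named lost their call. For low R:FR added to low blue, 132 were called with only its 6 arrays and 124 to 332 with 1 array left out. The interaction gave 1 with only its arrays, which are the 12 light arrays, and 1 with an intensity trend, and 0 in every leave-out. The canopy count was 554 to 825 in leave-outs. The difference between canopy and low R:FR gave 763 with array weights, 185 without control light replicates 1 and 3, and 322 to 591 in leave-outs. Of the 48 called genes 16 kept their call in all 6 leave-outs, 29 lost it without control light replicate 3, 41 without control light replicates 1 and 3, and 30 with only the 6 arrays. In all settings run 7 kept it (AT4G25260, AT5G66590, MGL, AT3G56290, AT1G69570, AT5G42760 and LCR69). The causes were not tested. Quantile normalization moved the median of all probe sets by under 0.1.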
